A study of Mus musculus with 10 samples.

Results

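Fat tissue releases hormones and other signalling proteins, called adipokines, and this account covers 9 genes of that kind: Adipoq (adiponectin), Lep (leptin), Retn (resistin), Cfd (adipsin, or complement factor D), Rbp4 (retinol-binding protein 4), Rarres2 (chemerin), Cmklr1 (a chemerin receptor), Apln (apelin) and Nampt (visfatin). They were taken by name, as known adipokines and a receptor, from the 52636 gene identifiers in the count table. The choice was made with earlier results of these data known. All 9 were among the 15927 genes with enough counts to be tested, so the filter on low counts removed none of them. The tissue was inguinal white adipose tissue, the subcutaneous fat depot of the groin, from C57BL/6 mice aged 6 months.

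The knockout group held 5 libraries from mice labelled TCF7L2F/F; Adp-Cre, in which both alleles of Tcf7l2 carry loxP sites and a Cre transgene is present. The control group held 5 libraries from TCF7L2F/F mice, whose alleles were also floxed but which carried no Cre and whose genotype label reads wild type. An effect of Cre itself therefore cannot be told apart from loss of Tcf7l2. The labels do not spell out the promoter behind Adp-Cre, and the genotype field calls the knockout an adipose one. All the mice ate a 65% high fat diet, which the labels give as 16 weeks in one field, 12 weeks in another and 4 months in a protocol. The mouse sex is not labelled. In counts-per-million (CPM), Xist reached at most 0.345 in any library and the Y-linked gene Ddx3y lay between 243 and 334. The sample titles carry a number of their own for each library, different in all 10, but the labels do not say what it numbers or that each library came from a separate mouse, so the p-values measure the spread between these libraries. Libraries 1 to 5 of the study's numbering were controls and 6 to 10 knockouts, so genotype and library order cannot be told apart.

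Adiponectin, leptin and adipsin are made mainly by mature fat cells. Leptin signals fat stores to the brain, adiponectin raises insulin sensitivity in liver and muscle, and adipsin is the serine protease that starts the alternative pathway of complement. In mice resistin is also a fat cell product and opposes insulin action. Chemerin is secreted as an inactive precursor, is cut by proteases at its carboxyl end, and then acts through the G protein-coupled receptor Cmklr1, which macrophages, dendritic cells and fat cells carry. Tcf7l2, the gene deleted here, encodes a transcription factor through which Wnt and beta-catenin signals reach DNA.

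The 10 libraries held 14032866 to 17782073 counts, so that a count of 3 corresponded to 0.172 to 0.205 CPM. CPM values here are scaled by the trimmed mean of M values (TMM). Tcf7l2 itself was measured at 5.57, 6.14, 6.20, 5.58 and 5.68 CPM in the knockout libraries, against 11.1, 10.5, 9.16, 11.4 and 11.1 CPM in the control libraries. Every knockout library lay below every control library, with a log2 fold change, knockout over control, of -0.87 (SE 0.096, edgeR adjusted p = 6.15e-04) and an exact two-sided permutation p of 0.0079, the smallest that 5 libraries against 5 can give. The labels do not say which exon was deleted, and these counts cover the whole gene. In a principal component analysis (500 genes), control 5 lay among the knockout libraries on the first axis and knockout 1 at the far end of the knockout range. In these bulk libraries, fewer cells of a type and less RNA per cell cannot be told apart.

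Sequences just upstream of the 4 genes that passed the test are shown so that the region a transcription factor could bind can be read. That of Rbp4 is added because, among the genes with RefSeq windows, only it held either of the TCF/LEF motifs searched, CTTTGAA and CTTTGAT. Each window runs 5′ to 3′ on the gene's own strand, from 250 to 11 bases before the RefSeq start site in build GRCm38.p6. Lep lies at chr6:29059971-29060210 on the plus strand, Cfd at chr10:79890603-79890842 plus, Retn at chr8:3655520-3655759 plus, Cmklr1 at chr5:113643614-113643853 minus and Rbp4 at chr19:38125332-38125571 minus. Capitals mark the motif matches.
Lep: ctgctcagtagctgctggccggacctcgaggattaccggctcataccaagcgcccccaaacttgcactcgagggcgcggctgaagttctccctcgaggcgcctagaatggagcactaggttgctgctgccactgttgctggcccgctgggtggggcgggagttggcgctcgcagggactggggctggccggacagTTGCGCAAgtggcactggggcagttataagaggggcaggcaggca
Cfd: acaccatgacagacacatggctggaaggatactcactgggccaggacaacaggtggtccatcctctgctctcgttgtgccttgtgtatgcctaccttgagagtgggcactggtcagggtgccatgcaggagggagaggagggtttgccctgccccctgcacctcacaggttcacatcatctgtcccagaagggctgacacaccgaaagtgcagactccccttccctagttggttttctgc
Retn: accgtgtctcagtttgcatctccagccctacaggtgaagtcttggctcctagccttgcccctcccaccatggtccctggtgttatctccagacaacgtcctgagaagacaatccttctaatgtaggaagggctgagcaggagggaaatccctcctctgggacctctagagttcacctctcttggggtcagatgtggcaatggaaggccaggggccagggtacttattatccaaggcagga
Cmklr1: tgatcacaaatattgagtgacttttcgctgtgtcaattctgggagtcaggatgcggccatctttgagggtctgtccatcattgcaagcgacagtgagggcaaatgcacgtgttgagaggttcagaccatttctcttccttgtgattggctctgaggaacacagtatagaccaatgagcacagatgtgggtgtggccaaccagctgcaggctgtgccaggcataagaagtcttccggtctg
Rbp4: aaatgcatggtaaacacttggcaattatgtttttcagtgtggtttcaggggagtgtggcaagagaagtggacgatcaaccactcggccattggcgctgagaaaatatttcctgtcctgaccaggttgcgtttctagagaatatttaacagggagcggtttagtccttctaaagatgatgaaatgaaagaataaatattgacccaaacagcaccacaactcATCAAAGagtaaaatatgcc
The motifs searched on both strands were the TCF/LEF motifs CTTTGAA and CTTTGAT, the C/EBP motif TTGCNNAA, the PPAR half-site AGGTCA and the TATA box TATAAA. Other forms of the TCF/LEF motif were not searched. The Lep window held a C/EBP match, TTGCGCAA, 55 to 48 bases before the start site. The Rbp4 window held ATCAAAG, which is CTTTGAT read on the opposite strand, 30 to 24 bases before the start site. RefSeq gives Rbp4 another start site, with a window at chr19:38124822-38125061 on the minus strand, not printed because part of it is exonic. That window held neither of the searched TCF/LEF motifs but a C/EBP and a TATA box match. The Cfd, Retn and Cmklr1 windows held no match to any of them. Among all 32851 RefSeq windows of the same length, 7.29% held either TCF/LEF motif, 9.29% the C/EBP motif, 13.5% the PPAR half-site and 12.1% the TATA box. The Cmklr1 window lies in an intron of the gene as GENCODE annotates it, which begins farther upstream. RefSeq windows were found for 8 of the 9 genes, all but Rarres2.

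Among the 9 genes, 1 rose and 3 fell in the knockouts at an adjusted p below 0.05 in edgeR's quasi-likelihood test, that is 4 of 9 (44.4%) where 12.9% of all tested genes were called. Leptin rose, and adipsin, the chemerin receptor Cmklr1 and resistin fell. By direction, 5.84% of all tested genes were called higher and 7.05% lower (930 and 1123 genes), a split that was 175 and 534 when scaled to adipocyte marker counts and 1313 and 1026 with no filter on low counts. The knockout and control ranges did not overlap for 3 of the 9 genes (33.3%), Lep, Cfd and Cmklr1, beside 8.99% of all tested genes (4.55% with the knockouts above, as for Lep, and 4.45% below). The log2 fold change was below 0 for 8 of the 9, with a median of -0.32, while the median over all tested genes was 0.00018. Of those 8, Adipoq (-0.01) and Nampt (-0.02) lay close to 0, and their sign was reversed in 8 and 11 of 21 alternative settings. Because the 9 genes were chosen with earlier results of these data known, these shares are a description and not a test of the set.

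**Figure D1:**
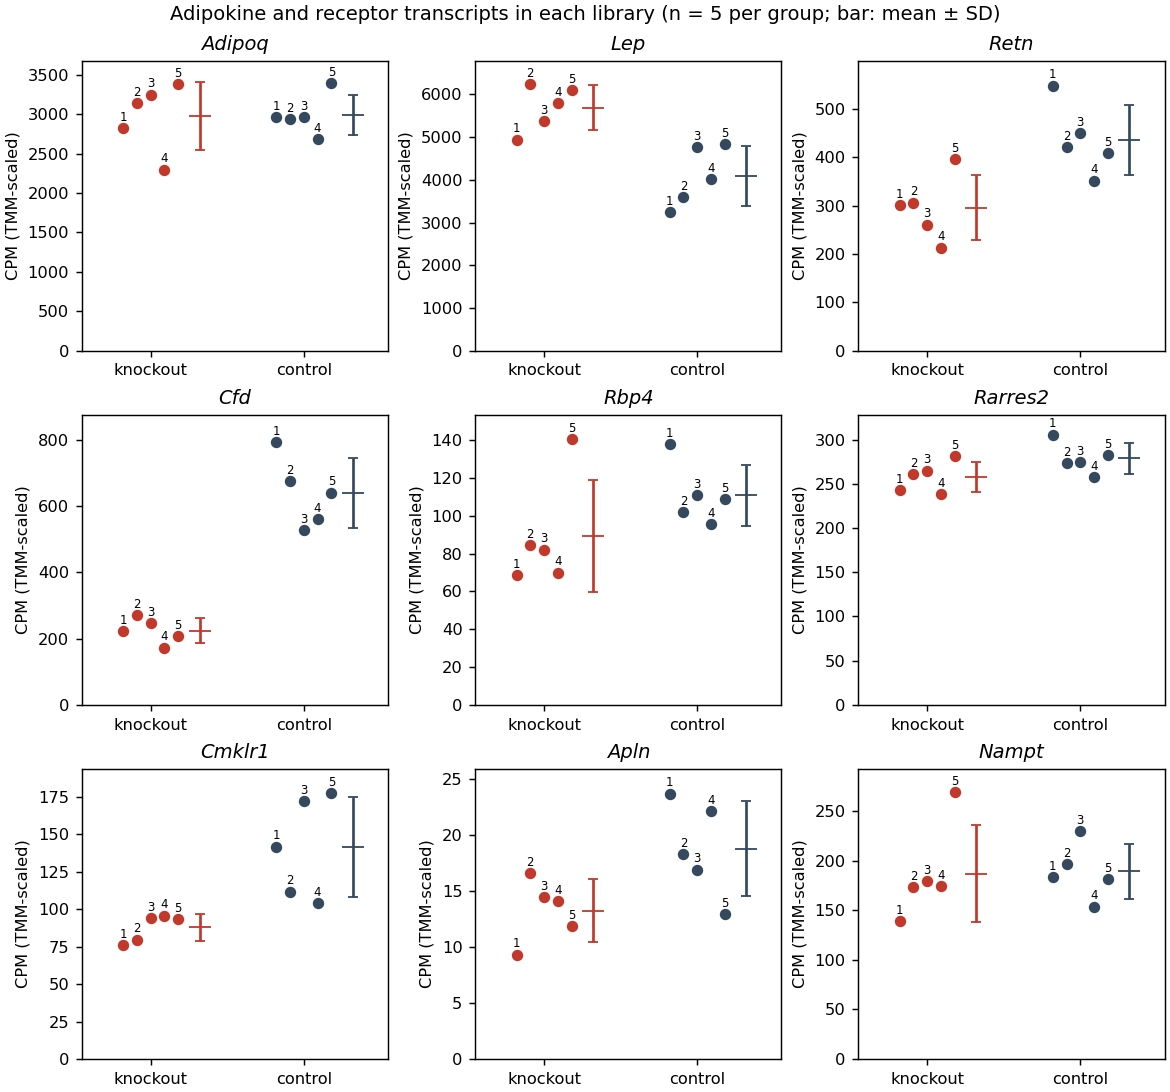
CPM (TMM-scaled, linear axis from 0) of each of the 9 genes in the 5 knockout and 5 control libraries, 1 numbered point per library, with the mean and SD beside the points. The Cfd, Lep and Cmklr1 points of the knockout and control groups do not overlap, and Rbp4 and Nampt each have 1 high knockout library, knockout 5.

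**Figure D2:**
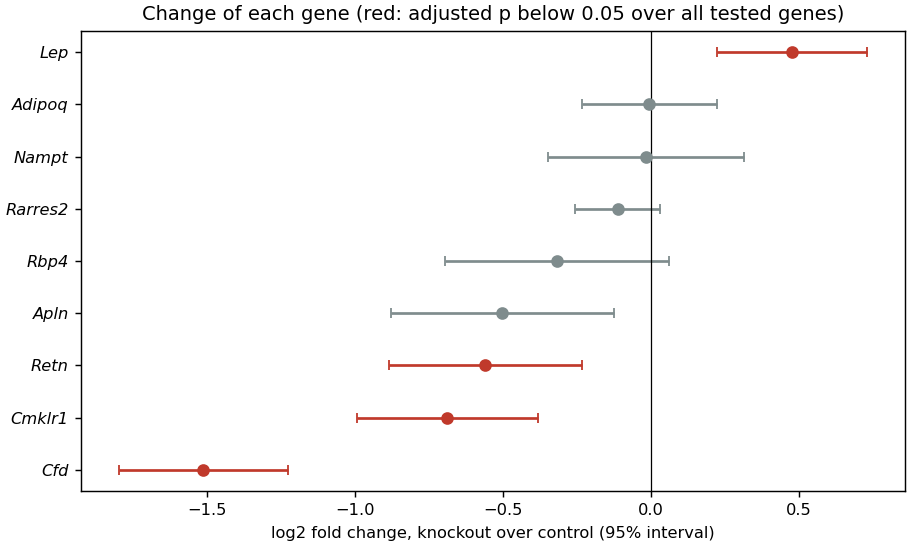
Log2 fold change, knockout over control, of the 9 genes with 95% intervals from the edgeR fit; red points had an adjusted p below 0.05. Cfd lies farthest from 0 at -1.51, Lep is the only red point above 0, and the intervals of Adipoq, Nampt, Rarres2 and Rbp4 span 0.

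Leptin, the hormone that reports fat stores to the hypothalamus, was higher in the knockout fat. Lep (ENSMUSG00000059201, chr6:29060220-29073877, plus strand) gave 4940.1, 6242, 5376, 5795 and 6092 CPM in the knockout libraries, against 3239, 3594, 4765, 4019 and 4827 CPM in the control libraries. The lowest knockout library, knockout 1, lay just above the highest control library, control 5. The means were 5689 ± 533 CPM in the knockouts and 4089 ± 703 CPM in the controls (SD, n = 5 each), a 1.39-fold difference. The log2 fold change was 0.48 (SE 0.12, 95% interval 0.22 to 0.73, edgeR adjusted p = 0.0245). The call rested on several libraries, since leaving out knockout 2, knockout 5, control 1, control 2 or control 4 in turn moved the adjusted p to between 0.0542 and 0.0808, with log2 fold changes of 0.40 to 0.55 over all 10 such fits.

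Of 12 tested genes for the leptin receptor and its signalling, Lep itself rose, 11 did not pass the test and none fell, with a list median of 0.09. Over all tested genes, 5.84% were called higher and 7.05% lower, and the count of this and each later list is a description beside those shares. Leaving out single libraries gave 0 to 1 called higher and 0 to 1 lower in this list. Lepr, the leptin receptor, averaged 6.71 ± 3.37 CPM in the knockouts and 6.52 ± 0.633 CPM in the controls, with a log2 fold change of 0.05 (edgeR adjusted p = 0.927). The close means rested on knockout 1, at 12.3 CPM. The other knockouts stood at 4.38, 6.07, 6.97 and 3.83 CPM, and the controls at 6.09 to 7.62 CPM.

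Adiponectin, the most abundant of the 9 transcripts per length, gave nearly equal means in the knockout and control groups. Adipoq (ENSMUSG00000022878, chr16:23146536-23158028, plus strand) gave 2824, 3134, 3248, 2297 and 3379 CPM in the knockout libraries, against 2964, 2937, 2966, 2687 and 3388 CPM in the control libraries. The ranges overlapped almost completely, with knockout 4 lowest of all. The means were 2976 ± 432 CPM in the knockouts and 2989 ± 252 CPM in the controls, with a log2 fold change of -0.01 whose 95% interval ran from -0.23 to 0.22 (edgeR adjusted p = 0.975).

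The adiponectin receptors Adipor1 and Adipor2 also gave close means. Adipor1 averaged 165 ± 5.78 CPM in the knockouts and 162 ± 9.62 CPM in the controls (log2 fold change 0.02, edgeR adjusted p = 0.827). Adipor2 averaged 914 ± 90.9 CPM in the knockouts and 918 ± 112 CPM in the controls (log2 fold change -0.01, adjusted p = 0.973). Cdh13, T-cadherin, which binds the large adiponectin multimers at the surface of endothelial cells, fell to 51.1 ± 5.04 CPM in the knockouts, against 70.5 ± 10.6 CPM in the controls (log2 fold change -0.47, SE 0.10, adjusted p = 0.0171). Without control 1 the adjusted p of Cdh13 was 0.0546. Of 10 endothelial markers, 8 were also called lower in the knockouts. The other 2, Egfl7 and Cldn5, had log2 fold changes of -0.23 and -0.28 without passing. With an endothelial marker score as a covariate Cdh13 stood at 0.04 (adjusted p = 0.986). With a T cell score it stood at -0.28 (adjusted p = 0.172) and with a score of intronic-type transcripts at -0.45 (adjusted p = 0.392). The endothelial score ran from 6.301 to 6.487 in the knockouts and from 6.542 to 6.916 in the controls. These ranges do not overlap, so fits with it cannot separate the score from genotype. The cause of the Cdh13 change was not tested, and the 3 scores are described with the cell markers. Appl2, an adaptor protein that works beside the adiponectin receptors, fell to 39.1 ± 2.51 CPM in the knockouts, against 45.7 ± 2.17 CPM in the controls (log2 fold change -0.22, adjusted p = 0.0338), and was called in 3 of the 10 fits that left out a library and with none of the 3 score covariates. Cdh13 and Appl2 were the 2 genes that fell among 11 tested for adiponectin assembly and reception, where 7.05% of all tested genes were called lower. The other 9 did not pass, and the count of lower genes ran from 0 to 2 when libraries were left out.

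The C1q/TNF proteins are paralogs of adiponectin. Of 10 tested, 1 fell and 9 did not pass, with a list median of 0.01, where 7.05% of all tested genes were called lower. C1qtnf9, the paralog that fell, averaged 67.0 ± 10.5 CPM in the knockouts and 95.3 ± 15.5 CPM in the controls (log2 fold change -0.51, edgeR adjusted p = 0.0233). It was called in 7 of the 10 fits that left out a library, and not without knockout 5, control 1 or control 2. With the T cell covariate it stood at -0.27 (adjusted p = 0.245), and with the intronic-type covariate at -0.59 (adjusted p = 0.367). With the endothelial covariate it stood at -0.03 (adjusted p = 0.992), a fit that cannot separate the endothelial score from genotype.

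Because a library's depth cancels in a ratio of its own counts, leptin was also set against adiponectin to compare libraries, without correction for length. Lep over Adipoq counts gave 1.75, 1.99, 1.66, 2.52 and 1.80 in the knockout libraries, against 1.09, 1.22, 1.61, 1.496 and 1.42 in the control libraries. The ranges did not overlap, though knockout 3 and control 3 were close, and the means were 1.94 ± 0.346 in the knockouts and 1.37 ± 0.208 in the controls. These ratios combine genes given above and carry no test of their own.

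**Figure D3:**
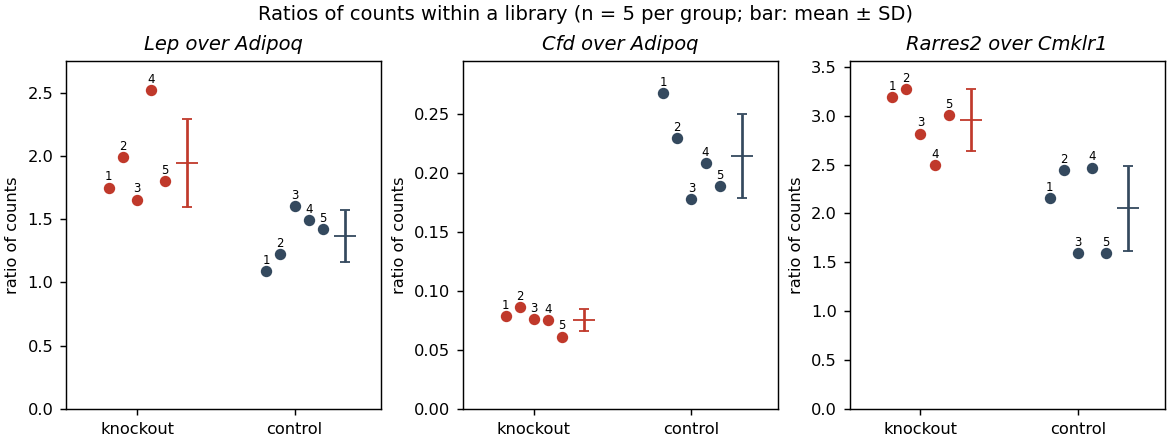
Ratio of counts within a library (linear axes from 0) for Lep over Adipoq, Cfd over Adipoq and Rarres2 over Cmklr1, with 1 numbered point per library and the mean and SD beside the points. The 5 knockout libraries lie above the 5 control libraries for Lep over Adipoq and Rarres2 over Cmklr1, and below them for Cfd over Adipoq.

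Adipsin had the largest change of the 9 genes. Cfd (ENSMUSG00000061780, chr10:79890853-79892655, plus strand) gave 222, 271, 248, 173 and 207 CPM in the knockout libraries, against 795, 675, 529, 560.3 and 641 CPM in the control libraries. The highest knockout library, knockout 2, lay far below the lowest control library, control 3. The mean fell to 224 ± 37.7 CPM in the knockouts, against 639.9 ± 105 CPM in the controls, which is 35.1% of the control level. The log2 fold change was -1.51 (SE 0.13, 95% interval -1.80 to -1.23, edgeR adjusted p = 1.54e-04), which ranked 3 among all tested genes by p. Leaving out each library in turn gave -1.59 to -1.42, with adjusted p between 2.22e-04 and 8.33e-04.

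Adipsin was also lower in the knockouts relative to other transcripts of the same library. Cfd over Adipoq counts averaged 0.0756 ± 0.00912 in the knockouts and 0.215 ± 0.0357 in the controls. Cfd over C3 counts, C3 being the complement protein cut by the convertase that adipsin helps to form, averaged 0.249 ± 0.0427 in the knockouts and 0.639 ± 0.0888 in the controls.

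Of 14 tested genes of the alternative complement pathway, 2 fell, 12 did not pass and none rose, with a list median of -0.10. The share called lower over all tested genes was 7.05%. Beside Cfd, the gene that fell was Cd46, a membrane protein that in humans limits complement on the cell's own surface. Cd46 averaged 6.54 ± 0.987 CPM in the knockouts and 11.5 ± 2.82 CPM in the controls (log2 fold change -0.81, SE 0.17, edgeR adjusted p = 0.0156), and 14.2% of its exonic bases are shared with other annotated genes. Cd46 moved to -0.18 with the intronic-type covariate (adjusted p = 0.707), -0.84 with the T cell covariate (adjusted p = 0.0731) and -0.43 with the endothelial covariate (adjusted p = 0.865). C3 averaged 906 ± 136 CPM in the knockouts and 1013 ± 182 CPM in the controls, with a log2 fold change of -0.16 (adjusted p = 0.435). C3ar1, the receptor for the C3a fragment, averaged 77.1 ± 12.9 CPM in the knockouts and 94.0 ± 2.92 CPM in the controls (log2 fold change -0.29, adjusted p = 0.0654). Cfb, factor B, which adipsin cleaves, averaged 7.66 CPM in the knockouts and 8.12 CPM in the controls (log2 fold change -0.08, adjusted p = 0.763), and 79.5% of its exonic bases are shared with another annotated gene.

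Resistin fell with overlapping ranges. Retn (ENSMUSG00000012705, chr8:3655770-3660110, plus strand) gave 302, 307, 261, 214 and 396 CPM in the knockout libraries, against 548, 421, 449.9, 352 and 408 CPM in the control libraries. Knockout 5 lay above control 4, and the other 4 knockout libraries lay below every control. The means were 296 ± 67.2 CPM in the knockouts and 436 ± 72.3 CPM in the controls, with a log2 fold change of -0.56 (SE 0.15, 95% interval -0.88 to -0.23, edgeR adjusted p = 0.0325). The call held in 4 of the 10 fits that left out a library; without knockout 2, 3 or 4 or control 1, 2 or 3 the adjusted p lay between 0.055 and 0.0901, with every log2 fold change between -0.68 and -0.46.

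The resistin family and its proposed receptors held 5 tested genes, of which Retn fell and 4 did not pass, with a list median of -0.04. The share called lower over all tested genes was 7.05%. Retnla, a resistin-like protein that alternatively activated macrophages secrete, averaged 279 ± 74.5 CPM in the knockouts and 205 ± 34.3 CPM in the controls (log2 fold change 0.44, edgeR adjusted p = 0.0905). The proposed resistin receptors Tlr4 and Cap1 had log2 fold changes of -0.17 (adjusted p = 0.0893) and 0.10 (adjusted p = 0.303).

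Retinol-binding protein 4, which carries retinol in blood, did not pass the test. Rbp4 (ENSMUSG00000024990, chr19:38116629-38125281, minus strand) gave 68.6, 84.4, 82.1, 70.0 and 140.5 CPM in the knockout libraries, against 138, 102, 111, 95.6 and 109 CPM in the control libraries. Knockout 5 was the highest of all 10 libraries, while the other 4 knockout libraries lay below every control. The means were 89.1 ± 29.6 CPM in the knockouts and 111 ± 16.1 CPM in the controls, with a log2 fold change of -0.32 (SE 0.18, 95% interval -0.70 to 0.06, edgeR adjusted p = 0.237). Without knockout 5 the log2 fold change was -0.54 with an adjusted p of 0.022. Rbp4 lies on the same chromosome as Tcf7l2, 17.62 Mb away.

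None of 10 tested genes for retinol transport passed the test in edgeR, DESeq2 or limma, and none had an unadjusted edgeR p below 0.05; the list median was 0.00461, and leaving out single libraries gave 0 to 1 called lower. Rbp7, a cellular retinol carrier, had a log2 fold change of -0.17 (edgeR adjusted p = 0.587). Stra6, a membrane receptor for retinol-binding protein, was too low to test, at means of 0.220 CPM in the knockouts and 0.127 CPM in the controls.

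In the chemerin axis the receptor Cmklr1 fell, while chemerin itself did not pass the test. Cmklr1 (ENSMUSG00000042190, chr5:113612354-113650426, minus strand) gave 76.1, 79.7, 94.1, 95.7 and 93.6 CPM in the knockout libraries, against 142, 112, 172, 104 and 177 CPM in the control libraries. No knockout library reached the lowest control, control 4, and the controls were the more spread out. The mean fell to 87.8 ± 9.18 CPM in the knockouts, against 141 ± 33.5 CPM in the controls, which is 62.1% of the control level. The log2 fold change was -0.69 (SE 0.14, 95% interval -0.99 to -0.38, edgeR adjusted p = 0.0142). All 10 fits that left out a library called it, with log2 fold changes of -0.78 to -0.59 and adjusted p between 0.00858 and 0.0415.

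Chemerin's transcript, Rarres2 (ENSMUSG00000009281, chr6:48569696-48572789, minus strand), gave 243, 261, 265, 238 and 281 CPM in the knockout libraries, against 306, 273, 274, 257 and 283 CPM in the control libraries. The ranges overlapped and the spread was small, with means of 258 ± 17.5 CPM in the knockouts and 279 ± 17.7 CPM in the controls. The log2 fold change was -0.11 with a 95% interval of -0.26 to 0.03 (edgeR adjusted p = 0.266). Of its exonic bases, 33.58% are shared with Lrrc61 on the opposite strand, and the sources used here do not give the strand setting of the counting. Lrrc61 was low, at 4.13 ± 1.11 CPM in the knockouts and 4.66 ± 0.495 CPM in the controls (log2 fold change -0.17, adjusted p = 0.551).

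The ligand to receptor ratio, Rarres2 over Cmklr1 counts, ran from 2.49 to 3.27 in the knockouts (mean 2.95 ± 0.313) and from 1.59 to 2.47 in the controls (mean 2.05 ± 0.436). The lowest knockout value, in knockout 4, and the highest control value, in control 4, nearly touched. Of 14 tested genes for chemerin receptors and the proteases that process chemerin, Cmklr1 fell, 13 did not pass and none rose, with a list median of 0.07. The share called lower over all tested genes was 7.05%. Leaving out single libraries gave 0 to 1 called higher and 1 to 2 lower in this list. Gpr1, another signalling receptor for chemerin, averaged 6.54 ± 1.58 CPM in the knockouts and 7.84 ± 1.17 CPM in the controls (log2 fold change -0.26, edgeR adjusted p = 0.321). Ccrl2, which binds chemerin without signalling and presents it to Cmklr1, averaged 6.07 ± 0.528 CPM in the knockouts and 5.85 ± 1.05 CPM in the controls (log2 fold change 0.05, adjusted p = 0.829). Whether Cmklr1 changed more than Gpr1 or Ccrl2 was not tested.

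Apelin, a peptide that acts through the receptor Aplnr and widens blood vessels, was the least abundant of the 9, with 162 to 398 counts a library. Apln (ENSMUSG00000037010, chrX:48025146-48034853, minus strand) gave 9.31, 16.6, 14.4, 14.1 and 11.8 CPM in the knockout libraries, against 23.7, 18.3, 16.9, 22.1 and 13.0 CPM in the control libraries. Control 5 lay inside the knockout range and the other 4 controls above it. The means were 13.3 ± 2.78 CPM in the knockouts and 18.8 ± 4.27 CPM in the controls, with a log2 fold change of -0.50 (SE 0.17, 95% interval -0.88 to -0.13, edgeR adjusted p = 0.0731). It missed the threshold in edgeR but passed in DESeq2 (log2 fold change -0.48, adjusted p = 0.0462), in limma (log2 fold change -0.49, adjusted p = 0.0317) and in edgeR without control 5 (log2 fold change -0.61, adjusted p = 0.0202). In edgeR it moved to -0.32 with 1 surrogate variable (adjusted p = 0.218), to -0.10 and -0.11 with the intronic-type and T cell covariates (adjusted p = 0.922 and 0.709), and to 0.32, the other direction, with the endothelial covariate (adjusted p = 0.865).

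None of 6 tested genes of the apelin axis passed in edgeR, with a list median of 0.01. At an unadjusted edgeR p below 0.05 there were 1 higher and 2 lower; DESeq2 called 1 higher and 1 lower, and limma 1 higher and 2 lower. Aplnr, carried mainly by endothelial cells, averaged 55.3 ± 5.26 CPM in the knockouts and 62.8 ± 5.05 CPM in the controls (log2 fold change -0.18, adjusted p = 0.126). Hif1a, a subunit of the hypoxia factor that induces apelin, averaged 287 CPM in the knockouts and 233 CPM in the controls (log2 fold change 0.30, adjusted p = 0.0583).

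Nampt, the rate-limiting enzyme that recycles nicotinamide into NAD and is also found outside cells as visfatin, gave close means. Nampt (ENSMUSG00000020572, chr12:32819545-32853349, plus strand) gave 139, 174, 179.9, 174 and 269.6 CPM in the knockout libraries, against 184, 197, 230.5, 154 and 182 CPM in the control libraries. Knockout 5 was the highest of all and knockout 1 the lowest, so the knockout range enclosed the control range. The means were 187 ± 48.8 CPM in the knockouts and 189 ± 27.8 CPM in the controls, with a log2 fold change of -0.02 and a 95% interval of -0.35 to 0.31 (edgeR adjusted p = 0.955). Among 14 tested genes of NAD salvage and use, 1 rose and 13 did not pass, with a list median of 0.00136. The share called higher over all tested genes was 5.84%. The gene that rose was Nnmt, which methylates nicotinamide and so takes it out of salvage, at 231 ± 34.7 CPM in the knockouts and 181 ± 12.8 CPM in the controls (log2 fold change 0.35, adjusted p = 0.0368); it was called in 4 of the 10 fits that left out a library and with none of the 3 score covariates. Leaving out single libraries gave 0 to 1 called higher and 0 to 1 lower in this list.

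Beyond the 9 genes, a list of other adipokines and related genes held 34 tested genes. Of these, 4 fell, 30 did not pass and none rose, with a list median of 0.11, where 7.05% of all tested genes were called lower. At an unadjusted edgeR p below 0.05 there were 5 higher and 7 lower, and DESeq2 and limma each called 3 higher. Nnat, neuronatin, is a small membrane protein of the endoplasmic reticulum rather than a secreted one. Nnat changed most, at 234 ± 43.3 CPM in the knockouts and 512 ± 42.0 CPM in the controls (log2 fold change -1.13, SE 0.11, edgeR adjusted p = 2.65e-04). It was called in every fit that left out a library. Nrg4, a growth factor that fat releases and liver receives, averaged 52.9 ± 8.24 CPM in the knockouts and 77.7 ± 14.6 CPM in the controls (log2 fold change -0.56, adjusted p = 0.0231). Sfrp5, a secreted Wnt antagonist, averaged 97.5 ± 10.8 CPM in the knockouts and 129 ± 18.5 CPM in the controls (log2 fold change -0.41, adjusted p = 0.0248). Gpx3, a secreted glutathione peroxidase, averaged 45.5 ± 4.76 CPM in the knockouts and 64.1 ± 11.8 CPM in the controls (log2 fold change -0.49, adjusted p = 0.0226). Without control 1 or control 2 the list's count of lower genes was 2 or 1. With 1 surrogate variable the adjusted p of Nrg4, Sfrp5 and Gpx3 was 0.0537, 0.0514 and 0.0516. Nrg4 moved to -0.40, -0.34 and -0.11 with the intronic-type, T cell and endothelial covariates (adjusted p = 0.542, 0.221 and 0.973). Sfrp5 and Gpx3 kept values of -0.34 to -0.72 under those 3 covariates, and of these fits only Sfrp5 with the intronic-type score passed (-0.72, adjusted p = 0.014). Nnat passed with the intronic-type and T cell covariates and stood at -1.03 with the endothelial one (adjusted p = 0.312).

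Levels of different genes were ordered as CPM per kilobase of exonic length, while the ratios given above are of counts without regard to length and serve to compare libraries, not genes. In the knockouts the order of means was Adipoq at 2155 ± 313, Lep at 1696 ± 159, Cfd at 243 ± 40.9, Retn at 187 ± 42.6, Rarres2 at 97.0 ± 6.58, Rbp4 at 66.3 ± 22.0, Nampt at 37.1 ± 9.65, Cmklr1 at 25.8 ± 2.69 and Apln at 4.21 ± 0.882 CPM per kilobase. In the controls it was Adipoq at 2164 ± 182, Lep at 1219 ± 210, Cfd at 694 ± 114, Retn at 276 ± 45.8, Rarres2 at 105 ± 6.65, Rbp4 at 82.6 ± 12.0, Cmklr1 at 41.5 ± 9.84, Nampt at 37.5 ± 5.51 and Apln at 5.97 ± 1.36 CPM per kilobase. In the controls only the neighbours Rarres2 and Rbp4, and Cmklr1 and Nampt, had overlapping ranges. In the knockouts Adipoq and Lep overlapped, as did Cfd and Retn, Rarres2 and Rbp4, Rbp4 and Nampt, and Nampt and Cmklr1, so the order within those pairs was not separated by the spread across libraries. Within a library the order was firmer: Rarres2 over Rbp4, Rbp4 over Nampt and Nampt over Cmklr1 held in 5 of 5 knockout libraries, and Adipoq over Lep and Cfd over Retn in 4 of 5. Cmklr1 and Nampt exchanged places between the groups. Together the 9 genes took 0.9009 to 1.037% of all counts in the knockout libraries and 0.8446 to 0.9622% in the control libraries.

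**Figure D4:**
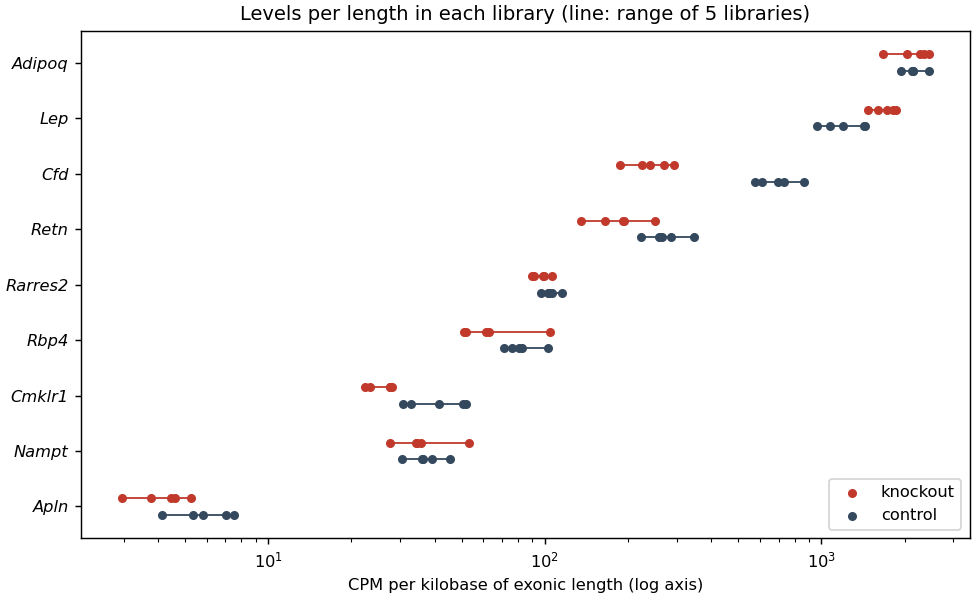
Level of each gene in CPM per kilobase of exonic length (log axis) in the 5 knockout libraries (upper row of each pair) and the 5 control libraries (lower row); the line spans the range. Adipoq and Lep are the highest of the 9 genes in every library and Apln the lowest, and the Cfd, Lep and Cmklr1 ranges of knockout and control libraries do not overlap.

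The genes whose levels ran most like each adipokine were taken by Pearson's r of log2 CPM over the 10 libraries, among 12253 genes. All share the same libraries, and where knockouts and controls are apart the group difference alone raises r. The genes named are also those with the highest of 12253 values, each over only 10 libraries, and such a selection by itself yields high r. These values are therefore a description, and whether any of them exceeds what selection gives was not tested. Lep ran most like Rhod (r = 0.99, and 0.97 after the group means were removed), Msrb1 (0.98 and 0.96) and Ppic (0.98 and 0.95). Cmklr1 ran most like Kcnj15 (0.98 and 0.96), Ankrd29 (0.96 and 0.92) and Phyh (0.95 and 0.86), and Retn most like Gldc (0.97 and 0.95), Cidea (0.95 and 0.88) and Suclg2 (0.95 and 0.88). Among the genes that ran most like Cfd were Slc2a4 (0.98 and 0.87) and Pck1 (0.98 and 0.67). For 4 of the genes that did not pass the test, the closest were Kcne1l for Adipoq (r = 0.93), Acp5 for Rbp4 (0.94), Hoxc5 for Rarres2 (0.93) and Rasgrf2 for Apln (0.97). Among the 9 themselves, with group means removed, Rbp4 and Rarres2 varied most alike (r = 0.88 over the 10 libraries), then Retn and Rbp4 (0.83), while Lep and Cfd were the most opposed (-0.43). Knockout 5 was the highest knockout and control 1 the highest control for each of Rbp4, Rarres2 and Retn. The correlations were not recomputed without those libraries.

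Markers of the cells in the depot moved with genotype to differing degrees. Their counts are given beside 5.84% of all tested genes called higher and 7.05% called lower. Mature adipocyte markers were high in every library, with summed levels of 45381 to 60940 CPM in the knockouts and 45164 to 54007 CPM in the controls; of 20 tested, 3 rose, 6 fell and 11 did not pass. Macrophage markers, of which none of 10 passed in edgeR, DESeq2 or limma or at an unadjusted edgeR p below 0.05, summed to 2281 to 2624 CPM in the knockouts and 2229 to 2797 CPM in the controls. Endothelial markers were called lower in 8 of 10, with sums of 923 to 1064 CPM in the knockouts and 1111 to 1427 CPM in the controls, which do not overlap. T cell markers rose in 6 of 12, with sums of 55.3 to 219 CPM in the knockouts and 35.1 to 83.3 CPM in the controls, and B cell markers in 4 of 8, with sums of 17.7 to 385 CPM in the knockouts and 9.94 to 27.97 CPM in the controls; knockout 1 gave both knockout maxima. Leaving out single libraries moved the called counts to 0 to 4 higher and 3 to 6 lower for adipocyte markers, and to between 4 and 10 for endothelial, 0 and 9 for T cell and 0 and 6 for B cell markers. Of the other cell types, 4 of 6 tested Schwann cell markers and 1 of 10 progenitor markers fell, none of 8 mural markers passed in edgeR (1 higher and 3 lower at an unadjusted p below 0.05, and 2 lower each in DESeq2 and limma), none of the mast cell or skeletal muscle markers passed in edgeR, DESeq2 or limma or had an unadjusted edgeR p below 0.05 with all libraries, although up to 6 muscle markers were called higher with a library left out (control 5). Muscle marker sums stood apart in knockout 1 (688 CPM), knockout 3 (549 CPM) and control 5 (514 CPM), with 30.3 to 107 CPM in the other knockouts and 19.6 to 64.7 CPM in the other controls. All 8 epithelial markers were too low to test. The mean log2 CPM of 786 genes annotated as sense-intronic or as still to be experimentally checked ran from 0.06 to 0.46 in the knockouts and from 0.38 to 1.27 in the controls.

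The T cell and endothelial scores were the mean log2 CPM of the tested markers of each list, not the summed CPM given above. These scores and the intronic-type score were scaled and entered in turn as a covariate beside genotype. With the intronic-type score, Cfd (log2 fold change -1.43, edgeR adjusted p = 0.0102) and Cmklr1 (-1.11, adjusted p = 0.01) were still called, while Lep moved to 0.14 (adjusted p = 0.742) and Retn to -0.73 (adjusted p = 0.356). Of the controls only control 5, at 0.38, lay within the knockout range of that score. That fit therefore separates the score from genotype poorly, and it called 49 of all tested genes. With the T cell score, Cfd was called (-1.46, adjusted p = 0.00175), and Lep (0.57, adjusted p = 0.0599), Cmklr1 (-0.71, adjusted p = 0.0617) and Retn (-0.57, adjusted p = 0.123) kept their direction without passing. With the endothelial score, whose ranges do not overlap between the groups, none of the 9 passed; Cfd stood at -1.504 (adjusted p = 0.136), Lep at 0.37 (adjusted p = 0.812) and Cmklr1 at -0.83 (adjusted p = 0.585), and only 1 of all tested genes was called. Scaled to the adipocyte marker counts instead, all 4 were called, with log2 fold changes of 0.40 for Lep, -1.59 for Cfd, -0.75 for Cmklr1 and -0.64 for Retn.

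**Figure D5:**
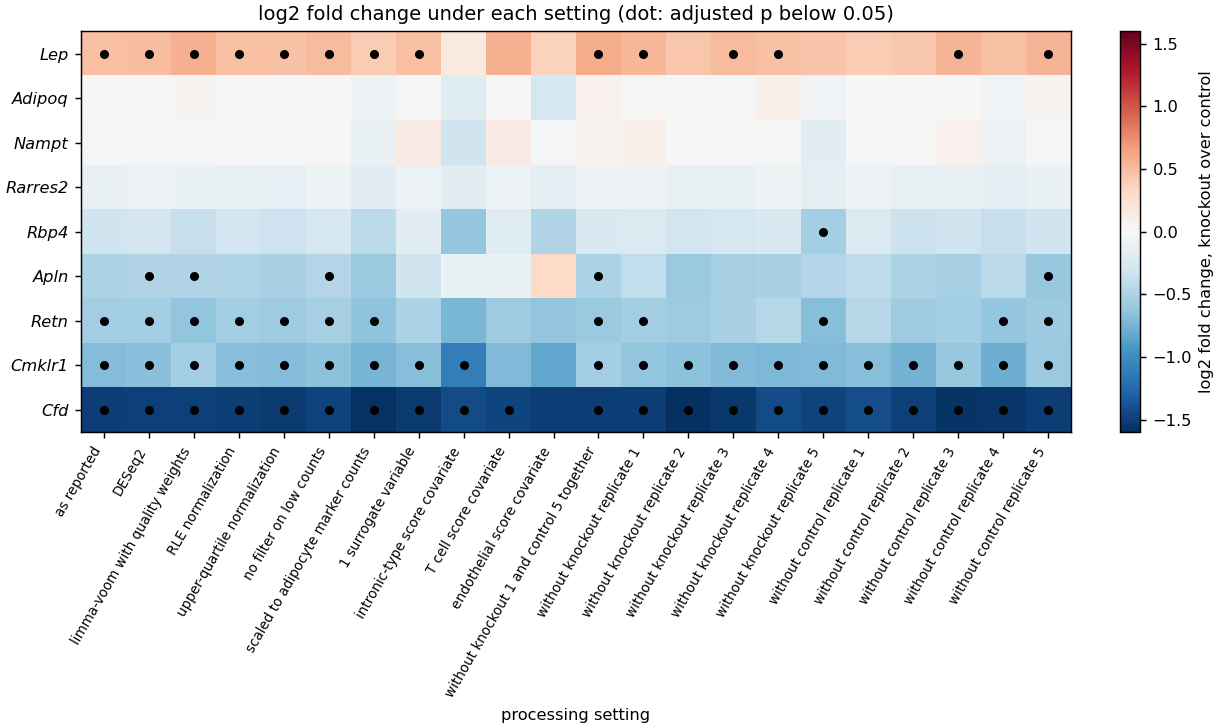
Log2 fold change, knockout over control, of the 9 genes (rows) under each processing setting (columns), as colour from blue, lower in the knockouts, to red, higher; a dot marks an adjusted p below 0.05. Cfd is dotted in every column but the endothelial covariate, Cmklr1 in every column but the T cell and endothelial covariates, and Lep and Retn lose their dots in several columns.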

How the data were processed

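Total RNA of inguinal fat was depleted of ribosomal RNA and made into stranded libraries, per the labels' protocols. The authors deposited whole-number counts per gene for 10 libraries. STAR 2.5.2b, featureCounts 1.5.1, DESeq2 1.16.0 and GRCm38 are named in the submitters' processing notes; the sources used here do not give the annotation release, strand setting or treatment of multi-mapped reads. Of 52636 identifiers, 52489 matched a symbol in GENCODE M21 (GRCm38), whose coordinates and exon-union lengths were used.

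Counts were filtered with filterByExpr by group, scaled by TMM and tested with edgeR 4.0.16 (quasi-likelihood, genotype as the only term, R 4.3.3), with Benjamini-Hochberg adjustment over 15927 genes and a threshold of 0.05. SEs and 95% intervals come from the F statistic. The script was tested on simulated counts. Library totals were 14032866 to 17782073; pairs of the same group differed beyond sampling noise (chi-square per degree of freedom 7.28 to 29.7), so all were counted. Promoter windows are RefSeq's.

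The 9 genes and all lists were chosen with earlier results of these data known. Named genes are the 9 and Tcf7l2, fixed partner genes, up to 4 genes of smallest p per list and the 3 genes most correlated with each of the 9; Lrrc61 was added for its overlap, and a few genes that the rule selects are not reported here. Alternatives were DESeq2 1.42.0, limma 3.58.1, other scalings, no filter, 1 surrogate variable (sva 3.50.0), score covariates and left-out libraries.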

Additional observations from a re-analysis of the deposited data

Results flagged for a closer look

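Among 70 groups of 5 libraries (35 genes in the knockouts and in the controls), 7 held a library whose gap to its nearest neighbour passed Dixon's critical value at the 95% level; chance alone gives about 1 group in 20. Rbp4 in knockout 5 stood at 140.461 CPM, above the other 4 knockout libraries by 0.779 of the range. Cdh13 in knockout 1 stood at 42.3402 CPM, below its group. C3 in knockout 3 stood at 1147.15 CPM and Nnat in knockout 4 at 310.759 CPM, each above its group. Appl2 in control 2 stood at 49.5323 CPM and C1qtnf9 in control 3 at 122.209 CPM, each above its group. Lepr in control 5 stood at 7.61916 CPM, above its group. Knockout 5 also gave the highest Retn and Nampt of the knockouts, at 396 and 269.6 CPM, though neither gap passed the limit.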

How the results depend on the processing

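Of the 9 genes, 1 was called higher and 3 lower; DESeq2, limma, no filter and omission of knockout 1 with control 5 together gave 1 and 4, with Apln added. Other scalings gave 1 and 3, and 1 surrogate variable 1 and 2. The count higher was 0 with the intronic-type, T cell or endothelial covariate, and the count lower 2, 1 and 0. Leaving out each library gave 0 to 1 higher and 2 to 4 lower. Rarres2 was called under none of these settings. The log2 fold change of Adipoq, called under no setting, was -0.20 with the intronic-type and -0.28 with the endothelial covariate and changed sign with DESeq2 (0.0132), limma (0.0393), no filter (0.0219), the T cell covariate (0.00183) and without knockout 1 and control 5 (0.0631), and ran from -0.0530 to 0.0755 over left-out libraries. Nampt did so with DESeq2 (0.00469), no filter (0.0133), 1 surrogate variable (0.13), the T cell covariate (0.13) and without knockout 1 and control 5 (0.0606), and ran from -0.18 to 0.0802. With the endothelial covariate Apln stood at 0.32, Cdh13 at 0.0425 and Tcf7l2 at -0.95 (adjusted p = 0.311), and with the intronic-type covariate Lrrc61 stood at 0.0382; the cause was not tested. The 2053 genes called over all tested genes, 930 higher and 1123 lower, became 3605 (1702 and 1903) with limma, 709 (175 and 534) scaled to adipocyte markers, which moved the median of all genes to -0.07, 1142 (602 and 540) with 1 surrogate variable, 49 (11 and 38), 440 (287 and 153) and 1 (1 and 0) with the intronic-type, T cell and endothelial covariates, and 3774 (1769 and 2005) without knockout 1 and control 5; DESeq2 called 2696 (1424 and 1272) and edgeR with no filter 2339 (1313 and 1026), both with more higher than lower. Left-out libraries gave 537 to 3094, 227 to 1386 higher and 310 to 1708 lower. No paired analysis was possible because the numbers in the sample titles are not shared between knockouts and controls. Apln, at 162 to 398 counts a library, had the lowest counts of the 9. Counts of the other lists, and genes outside the 9, were put through these settings after the data were seen.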
